A study of Homo sapiens with 6 samples.

Results

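The unfolded protein response and the amino acid stress response were read through 43 genes on Affymetrix gene arrays of a human HEK293 line carrying BAHD1 and its control line. A member was measured by a probe set, the group of probes summarised to 1 value per array, that names this gene alone. All 43 members had such a probe set, out of 18377 genes measured in this way. The members comprise 26 genes of the ATF4 branch, 14 genes of the XBP1 and ATF6 branches and the 3 sensors ERN1, EIF2AK3 and ATF6. HEK293 is an established line of human embryonic kidney cells. In the line HEK-BAHD1, BAHD1, which encodes a chromatin repressor, was integrated once at an engineered site behind the cytomegalovirus promoter. The sample labels give the isogenic line HEK-CT an out-of-frame β-galactosidase insert, whereas the methods of the study describe an empty vector. Each line was a pool of stable transfectants with the insert at that same site, grown with hygromycin at 200 µg/ml, and was sampled on 3 arrays from separate flasks. Error estimates therefore cover the spread between flasks of a single pool per line. DNA and RNA were taken at a later passage for a replicate of HEK-BAHD1 than for HEK-CT. Passages were not given array by array, so that replicate cannot be matched to an array. Differences between the lines cannot be told apart from differences between the pools.

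BAHD1 itself ran against the labels. On the arrays labelled HEK-CT it had a log2 signal of 10.06, 9.81 and 9.93, and on those labelled HEK-BAHD1 one of 6.75, 7.0 and 6.76. The groups did not overlap, and the log2 fold change was -3.10 (standard error, SE, 0.093 and limma adjusted p = 3.12e-05). Every direction below is that of the labels as deposited, with the array labelled HEK-BAHD1 set against the array labelled HEK-CT. Why BAHD1 ran against the labels was not tested. Array medians lay between 5.46 and 5.56. Of 10 genes fixed as markers of HEK293, 8 were above the median of every array, among them INA, KRT8, KRT18 and VIM, whereas none of the 11 measured markers of blood, fibroblasts or endothelium was. NEFH and NEFM, neurofilament genes listed as HEK293 markers, were not above the median of every array. Summed on the linear scale, the HEK293 markers ranged from 10796 to 10996 on the arrays labelled HEK-CT and from 9956 to 10766 on those labelled HEK-BAHD1, without overlap. Of these markers, NEFL, NEFM and SOX4 were called higher and VIM lower. The 5 fibroblast markers summed to between 102 and 104 and between 98.8 and 109 on the same arrays, and the 3 blood markers to between 58.5 and 66.4 and between 56.3 and 64.9. The 3 endothelial markers summed to between 51.6 and 56.4 and between 59.0 and 59.6, without overlap, although none of them was called. The part of these values in the results below was not tested.

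When unfolded proteins gather in the endoplasmic reticulum (ER), the kinase PERK, encoded by EIF2AK3, the nuclease IRE1, encoded by ERN1, and the membrane-bound factor ATF6 pass on the signal. PERK phosphorylates the initiation factor eIF2, as do other kinases when amino acids or haem are short, which slows translation in general but favours that of ATF4. ATF4 then drives genes for amino acid synthesis and uptake, tRNA charging and the stress factors DDIT3 (CHOP) and ATF3, while IRE1 splices the XBP1 transcript and ATF6 is cut at the Golgi, and their products drive chaperones and degradation factors of the ER. A gene-level array signal reads the amount of transcript, and neither the translation of ATF4, the splicing of XBP1 nor the cleavage of ATF6.

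Elements through which these factors are known to act are shown by branch. Promoter windows from RefSeq (GRCh38.p14), spanning 250 bases before to 50 bases after each gene start, were searched on both strands. Windows were given for 38 members; NUPR1, SLC7A11, ALDH1L2, PSPH and SHMT2 are named only. The C/EBP-ATF element, read as TGATGNAA, lay in windows of 8 members, 7 of 21 in the ATF4 branch and 1 of 14 in the XBP1 and ATF6 branches, against 4.46% of all 27305 genes with a window. A gene may have several windows, which raises the chance of a match, and 14 members had more than 1. Sites of 6 members follow, with the element in capitals and each read 5′ to 3′ in the direction of the element.
ATF3 (chr1:212565205-212565234, plus strand): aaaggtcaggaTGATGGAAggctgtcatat
ASNS (chr7:97872458-97872487, minus strand): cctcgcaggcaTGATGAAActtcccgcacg
CHAC1 (chr15:40953251-40953280, minus strand): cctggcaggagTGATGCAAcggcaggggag
CEBPG (chr19:33374060-33374089, plus strand): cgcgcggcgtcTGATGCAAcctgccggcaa
SLC3A2 (chr11:62881719-62881748, minus strand): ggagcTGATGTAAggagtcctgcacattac
HERPUD1 (chr16:56931955-56931984, minus strand): tgggcacgggcTGATGCAAcccgccgcgtc
The ASNS element began 68 bases before the gene start and the CEBPG element 42 bases before it, while that of SLC3A2 began 37 bases after it. CARS1 and GARS1 held the element as well.

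The ER stress element (ERSE), read as CCAAT and CCACG with 9 bases of any kind between them, lay in windows of 6 of the 14 genes of the XBP1 and ATF6 branches and of none of the 21 in the ATF4 branch. Of all genes with a window, 0.0916% held it. The spacing of the capitals below is the same in every site.
XBP1 (chr22:28800597-28800626, minus strand): gctggCCAATCGCGGAGGGCCACGaccgta
HSPA5 (chr9:125241385-125241414, minus strand): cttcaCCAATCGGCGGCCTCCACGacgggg
HSP90B1 (chr12:103930211-103930240, plus strand): cctgaCCAATCGGAAGGAGCCACGcttcgg
PDIA6 (chr2:10812847-10812876, minus strand): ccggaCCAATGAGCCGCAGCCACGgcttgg
CALR (chr19:12938379-12938408, minus strand): caccgaCCAATGATGGTCGACCACGcgtgg
CRELD2 (chr22:49918549-49918578, minus strand): tatggcCCAATCCGAGTTCGCCACGagagg
HSP90B1 held a further ERSE. The related ERSE-II, read as ATTGG and CCACG with 1 base between them, lay in HERPUD1 and SDF2L1, and in 0.0696% of all genes. HERPUD1 thus held elements of either kind. TGACGTGG, an element of XBP1 and ATF6, lay in 0 of the 14 genes of these branches. Among the members it lay only in a window of CARS1, a gene of the ATF4 branch, and it lay in 0.927% of all genes. A match of letters is a description and not evidence that a factor binds there.

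Of the 43 members, 7 rose and 4 fell on the arrays labelled HEK-BAHD1, whereas 32 were not called. A call joined an adjusted p under 0.05 from limma, over all 21062 probe sets that name a gene, and a difference of group medians above 0.2. By this rule, 13.2% of all probe sets were called, 6.79% higher and 6.39% lower. Higher calls made up 51.5% of these, or 36.6% after each array was centred on its median. The shares among members were 25.6%, 16.3% and 9.30%. With the local pooled error (LPE) test that the methods of the study name, 6 members were called higher and 4 lower, where 6.29% and 7.41% of all probe sets were. Groups did not overlap for 18 members that were higher and 7 that were lower, against 16.7% and 16.9% of all probe sets. The 4 lower calls held without any single array, whereas the 7 higher calls became 3 at most: 1 without HEK-CT replicate 3 or replicate 2 of HEK-BAHD1, 2 without replicate 1 or 2 of HEK-CT, and 3 without either of the other arrays. The calls were uneven between the branches. In the ATF4 branch 10 of 26 genes were called, 6 higher and 4 lower, whereas in the XBP1 and ATF6 branches 1 of 14 was called, higher, and none of the 3 sensors was. The branches were closer by looser measures. At an unadjusted limma p under 0.05, the ATF4 branch had 10 genes higher and 4 lower. The XBP1 and ATF6 branches had 5 higher and 2 lower, and all 21062 probe sets 3045 and 3118. Groups did not overlap for 11 higher and 5 lower genes of the ATF4 branch, and for 6 and 2 of the XBP1 and ATF6 branches. The difference between the branches was not tested. No probe set in the XBP1 and ATF6 branches or among the sensors was called lower by limma or LPE, although CALR and DNAJC3 had an unadjusted p under 0.05. With the LPE test, CALR, PDIA4 and PDIA6 had an adjusted p of 0.00686, 0.0147 and 0.00137. Only the rule on medians left them uncalled there. The rule on medians and the small number of arrays limit what can be called.

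**Figure D1:**
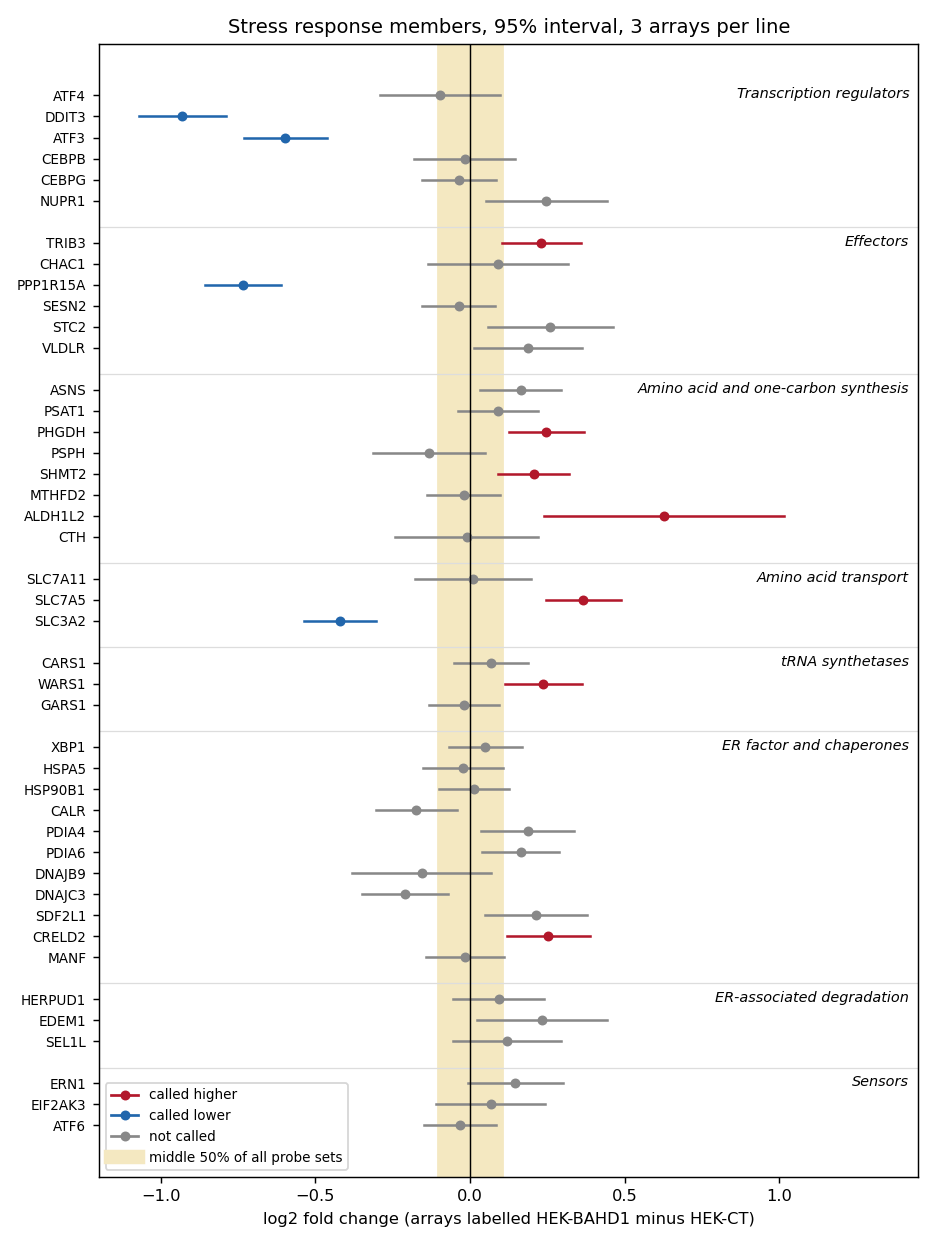
Log2 fold change (horizontal axis, arrays labelled HEK-BAHD1 minus HEK-CT) of the 43 members by role; points are estimates and lines their 95% intervals from limma with 3 arrays per line, coloured by call, and the band is the middle 50% of all probe sets. DDIT3, PPP1R15A, ATF3 and SLC3A2 lie to the left of the others, and the 10 called genes of the ATF4 branch stand on either side of 0.

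Among the transcription regulators of the ATF4 branch, the stress factors DDIT3 and ATF3 fell, and the other 4 were not called. ATF4, the factor that gives the branch its name, had log2 signals of 8.4, 8.11 and 8.18 on the arrays labelled HEK-CT and 8.10, 8.10 and 8.20 on those labelled HEK-BAHD1. These groups overlap, and the log2 fold change of -0.10 had a 95% interval from -0.29 to 0.10. DDIT3, a C/EBP family factor known for promoting cell death under lasting stress, had signals of 9.01, 9.07 and 9.08 against 8.11, 8.21 and 8.05. The groups were far apart relative to their spread, and DDIT3 had the 39th lowest log2 fold change of 21062 probe sets, -0.93 (SE 0.061 and limma adjusted p = 0.000375), or 1.91-fold less signal. In RNA from whole cultures, fewer cells with a transcript and less of it in each cell cannot be told apart.

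ATF3, a repressor and activator induced early in many stresses, had log2 signals of 7.26, 7.34 and 7.30 on the arrays labelled HEK-CT and 6.64, 6.70 and 6.77 on those labelled HEK-BAHD1. All arrays of either group were apart, with a log2 fold change of -0.60 (SE 0.058 and limma adjusted p = 0.00147). CEBPB and CEBPG, C/EBP factors that can pair with ATF4, had log2 fold changes of -0.02 and -0.04, and their groups overlapped. The 95% interval of CEBPG ran from -0.16 to 0.08. NUPR1, a small stress-induced nuclear protein, had signals from 5.25 to 5.46 against 5.46 to 5.71 and was above the array median on 2 of 6 arrays (log2 fold change 0.25, adjusted p = 0.0963 from limma).

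Of the effectors of the branch, PPP1R15A fell, TRIB3 rose and the other 4 were not called. PPP1R15A (GADD34) is the stress-induced subunit that directs a phosphatase to eIF2 and so restores translation. Its log2 signal was 8.22, 8.16 and 8.18 on the arrays labelled HEK-CT and 7.43, 7.43 and 7.5 on those labelled HEK-BAHD1. The spread within each line was at most 0.0404 (SD, n = 3), and the log2 fold change was -0.73 (SE 0.053 and limma adjusted p = 0.000471), the 79th lowest of all probe sets. TRIB3, a pseudokinase that holds back ATF4 and DDIT3, went the other way, from 7.04, 7.04 and 6.99 to 7.27, 7.30 and 7.19. Its log2 fold change of 0.23 had an SE of 0.055 and a limma adjusted p = 0.0337. The TRIB3 call was lost without any array except HEK-BAHD1 replicate 3 (adjusted p from 0.0744 to 0.114) and with the LPE test (adjusted p = 0.146).
The glutathione-degrading enzyme CHAC1, the mTORC1 inhibitor SESN2, the secreted glycoprotein STC2 and the lipoprotein receptor VLDLR had log2 fold changes of 0.09, -0.04, 0.26 and 0.19. For STC2 and VLDLR the groups did not overlap, although neither passed (adjusted p = 0.0903 and 0.148 from limma). Non-overlapping groups were found in 33.6% of all probe sets.

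**Figure D2:**
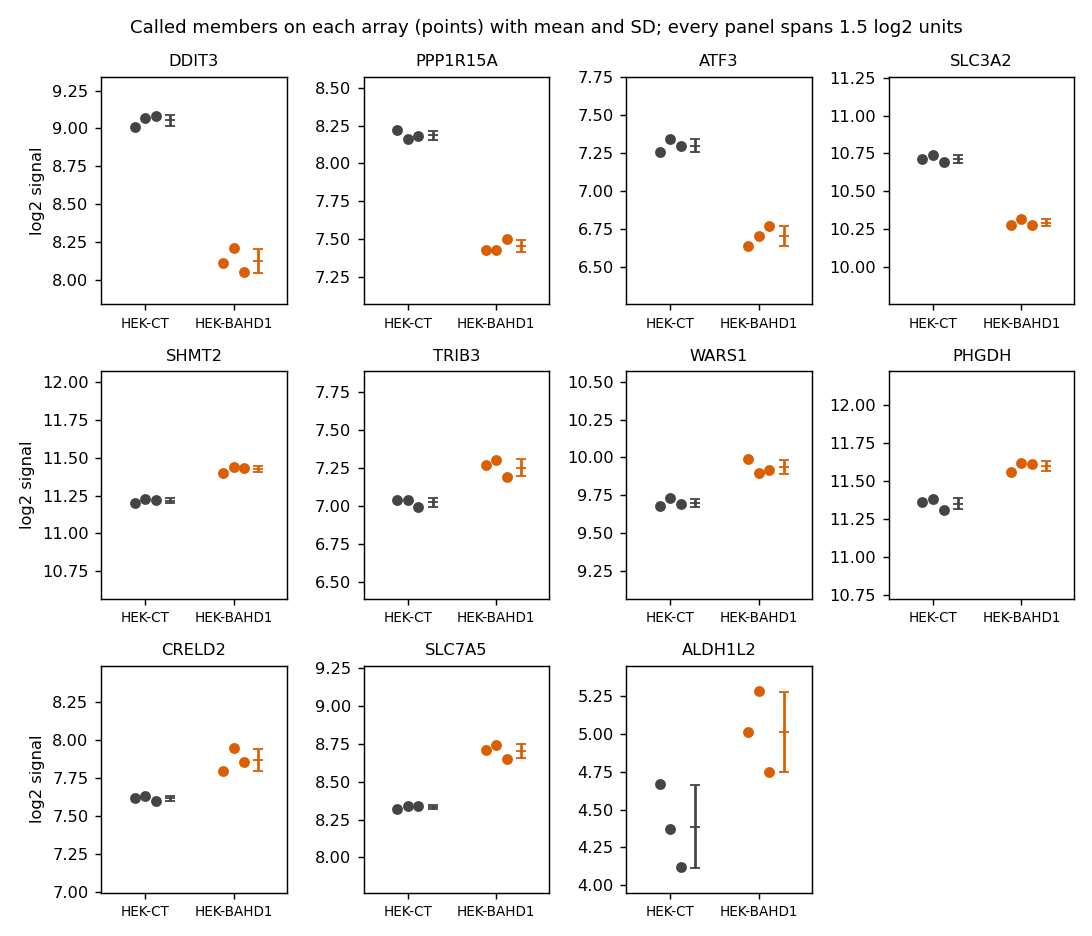
Log2 signal (vertical axis, each panel spanning 1.5 units) of the 11 called members on each array, by label; points are arrays, and the bars beside them are the mean and SD of 3 arrays. DDIT3, PPP1R15A, ATF3 and SLC3A2 lie lower under the label HEK-BAHD1 and the others higher, and ALDH1L2 has the widest spread.

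Of the 8 genes of amino acid and folate metabolism, 3 rose, none fell and 5 were not called. PHGDH, the first enzyme of serine synthesis, had log2 signals of 11.36, 11.38 and 11.31 on the arrays labelled HEK-CT and 11.56, 11.62 and 11.61 on those labelled HEK-BAHD1. The arrays of each line lay close together, and the log2 fold change was 0.25 (SE 0.052 and limma adjusted p = 0.0226). PHGDH was no longer called when replicate 1 or 3 of HEK-CT, or replicate 2 or 3 of HEK-BAHD1, was left out (adjusted p from 0.0607 to 0.0859). A further probe set that lists PHGDH together with MZT2B was at 0.02 and was not used. SHMT2, which turns serine into glycine in mitochondria, went from 11.20, 11.23 and 11.22 to 11.40, 11.44 and 11.43 (log2 fold change 0.21, adjusted p = 0.0334 from limma). This is the smallest called change among the members, next to the threshold, and it was lost without any single array (adjusted p from 0.0722 to 0.102).
ALDH1L2, a mitochondrial folate enzyme, had signals of 4.67, 4.37 and 4.12 against 5.01, 5.28 and 4.75, below the median of every array. Its log2 fold change of 0.63 was the highest of the members, with a wide 95% interval from 0.24 to 1.01 (adjusted p = 0.0464 from limma). Leaving out replicate 2 or 3 of HEK-CT, or replicate 1 or 2 of HEK-BAHD1, ended the call (adjusted p from 0.109 to 0.119).

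The other steps of these pathways were not called. For PSAT1, the second enzyme of serine synthesis, the log2 fold change was 0.09. PSPH, which completes that synthesis, was at -0.13 on the brighter of its probe sets and -0.05 on the other, so that only the first of the 3 enzymes of serine synthesis was called. ASNS, the asparagine synthetase whose promoter element is shown above, had signals from 9.27 to 9.34 against 9.40 to 9.52. The groups did not overlap, and the log2 fold change of 0.16 did not pass (adjusted p = 0.101 from limma). MTHFD2, a mitochondrial folate enzyme, was at -0.02 and -0.04 on its 2 probe sets, and the cysteine-producing enzyme CTH at -0.01. The 95% interval of MTHFD2 ran from -0.14 to 0.10 on the brighter probe set.

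The transport genes gave opposite calls for the subunits of a single transporter. SLC7A5 (LAT1) is the light chain that carries large neutral amino acids, and SLC3A2 (CD98) is the heavy chain that brings it to the membrane. SLC7A5 had log2 signals of 8.32, 8.34 and 8.34 on the arrays labelled HEK-CT and 8.71, 8.74 and 8.65 on those labelled HEK-BAHD1. It rose by 0.37 on the log2 scale (SE 0.052 and limma adjusted p = 0.00563), or 1.29-fold. SLC3A2 fell, from 10.71, 10.74 and 10.69 to 10.28, 10.32 and 10.28 (a log2 fold change of -0.42 with SE 0.050 and limma adjusted p = 0.00302). Each line's arrays lay within 0.1 of each other for both genes, and neither call was lost under any alternative tried. SLC7A11, the cystine carrier that also pairs with SLC3A2, was at 0.01 with a 95% interval from -0.18 to 0.20. The other measured light chains that pair with SLC3A2, named after their values were seen, were not called either, with SLC7A6 at -0.02, SLC7A7 at 0.07, SLC7A8 at -0.11 and SLC7A10 at 0.09.

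Of the 3 tRNA synthetases among the members, WARS1, which charges tryptophan tRNA, rose. Its log2 signal was 9.68, 9.73 and 9.69 on the arrays labelled HEK-CT and 9.99, 9.90 and 9.92 on those labelled HEK-BAHD1 (a log2 fold change of 0.24 with SE 0.053 and limma adjusted p = 0.0276). The WARS1 call was lost without any single array (adjusted p from 0.0539 to 0.0909). The cysteine and glycine enzymes CARS1 and GARS1 were at 0.07 and -0.02, and for GARS1 the 6 arrays lay between 10.84 and 10.87. Of 16 other measured cytosolic synthetases, none was called higher and TARS1 alone was called lower (log2 fold change -0.20, adjusted p = 0.0384 from limma), a call lost without any single array (adjusted p from 0.0637 to 0.105). None of the 16 was higher at an unadjusted limma p under 0.05, nor with the LPE test. Of all 21062 probe sets, 3045 and 1324 were higher by these measures. The median log2 fold change of the 16 was -0.01.

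In the XBP1 and ATF6 branches, CRELD2 was the only gene called. CRELD2, a secreted ER stress protein with an ERSE in its promoter, had log2 signals of 7.62, 7.63 and 7.6 on the arrays labelled HEK-CT and 7.80, 7.95 and 7.86 on those labelled HEK-BAHD1. The groups were apart, and the log2 fold change was 0.25 (SE 0.058 and limma adjusted p = 0.0291). Without any array other than HEK-BAHD1 replicate 1 the call was lost (adjusted p from 0.0688 to 0.0937), as it was with the LPE test (adjusted p = 0.0696). HSPA5 (BiP), the main ER chaperone and the classical reporter of this response, had signals of 11.45, 11.48 and 11.52 against 11.47, 11.51 and 11.40. The groups overlapped, and the log2 fold change of -0.02 had a 95% interval from -0.15 to 0.11. HSP90B1, the ER form of HSP90, was at 0.01, with all 6 arrays between 12.24 and 12.27. XBP1 had a log2 fold change of 0.05 (95% interval -0.07 to 0.17), over both forms of its transcript.

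Other ER chaperones and folding enzymes were spread on either side of 0. The calcium-binding chaperone CALR was at -0.17 and the co-chaperone DNAJC3, which also inhibits PERK, at -0.21, with groups that did not overlap (adjusted p = 0.0823 and 0.0561 from limma). The disulphide isomerases PDIA4 and PDIA6 were at 0.19 and 0.16 (adjusted p = 0.0997 and 0.0892 from limma), and the co-chaperone SDF2L1 at 0.21 (adjusted p = 0.0911 from limma). With the LPE test SDF2L1 was called higher (adjusted p = 0.0235), and CALR was called lower once each array was centred on its median (log2 fold change -0.21, adjusted p = 0.040 from limma). DNAJB9, a target of XBP1, and the secreted factor MANF were at -0.16 and -0.02 with overlapping groups. Among degradation factors, HERPUD1, EDEM1 and SEL1L were at 0.09, 0.23 and 0.12, and none passed (adjusted p = 0.382, 0.132 and 0.341 from limma). The sensors ERN1, EIF2AK3 and ATF6 were at 0.15, 0.07 and -0.03, and none was called.

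The median log2 fold change was 0.04 in the ATF4 branch and 0.07 in the XBP1 and ATF6 branches, against 0.00 over all probe sets. The SD of log2 fold changes over genes was 0.34 in the ATF4 branch, 0.15 in the XBP1 and ATF6 branches and 0.21 over all probe sets. Log2 fold changes ranged from -0.93 to 0.63 in the first and from -0.21 to 0.25 in the second. For each array, the mean signal of a branch was also taken relative to the HEK-CT mean of each gene. In the ATF4 branch it was -0.01, 0.04 and -0.04 on the arrays labelled HEK-BAHD1 and between -0.02 and 0.02 on those labelled HEK-CT, so that the groups overlapped. In the XBP1 and ATF6 branches it was 0.05, 0.07 and 0.04, above the range of -0.02 to 0.02 on the arrays labelled HEK-CT. These means were not corrected for the array medians, which were 5.51, 5.46 and 5.51 under the label HEK-CT and 5.5, 5.54 and 5.56 under HEK-BAHD1. The medians thus differed by amounts of similar size, and their part in these means was not tested. The mean of the ATF4 branch minus that of the XBP1 and ATF6 branches was -0.06, -0.03 and -0.08 on the arrays labelled HEK-BAHD1, below the values of 0.03, -0.01 and -0.02 on those labelled HEK-CT. The difference of branch medians, -0.03 over all arrays, became 0.0175 if HEK-BAHD1 replicate 3 was left out and -0.0042 if replicate 1 of that line was. These scores carry no test, since the members were chosen with results known.

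Within the ATF4 branch, the means of the roles lay on either side of 0, and the differences between roles were not tested. The role means were not corrected for the array medians either. Relative to HEK-CT, the mean of the 6 regulators was -0.262, -0.245 and -0.208 on the arrays labelled HEK-BAHD1, with DDIT3 and ATF3 the called genes among them. The other 4 regulators had a mean of 0.01, -0.01 and 0.07 on these arrays, and the median log2 fold change of all 6 was -0.07. The mean of the 8 synthesis genes lay above that of HEK-CT by 0.15, 0.22 and 0.07. Over all 3 arrays it was 0.146, and 0.078 without the dim ALDH1L2, left out after its values were seen. Without that gene, HEK-BAHD1 replicate 3 was at 0.026, beside 0.022 on HEK-CT replicate 2. The mean of the 3 tRNA synthetases lay above by 0.11, 0.09 and 0.08. Of these, WARS1 had a log2 fold change of 0.24, CARS1 of 0.07 and GARS1 of -0.02. Transport genes were at 0.02, 0.03 and -0.09 and effectors at -0.03, 0.06 and -0.03, and these overlapped or straddled the arrays labelled HEK-CT.

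**Figure D3:**
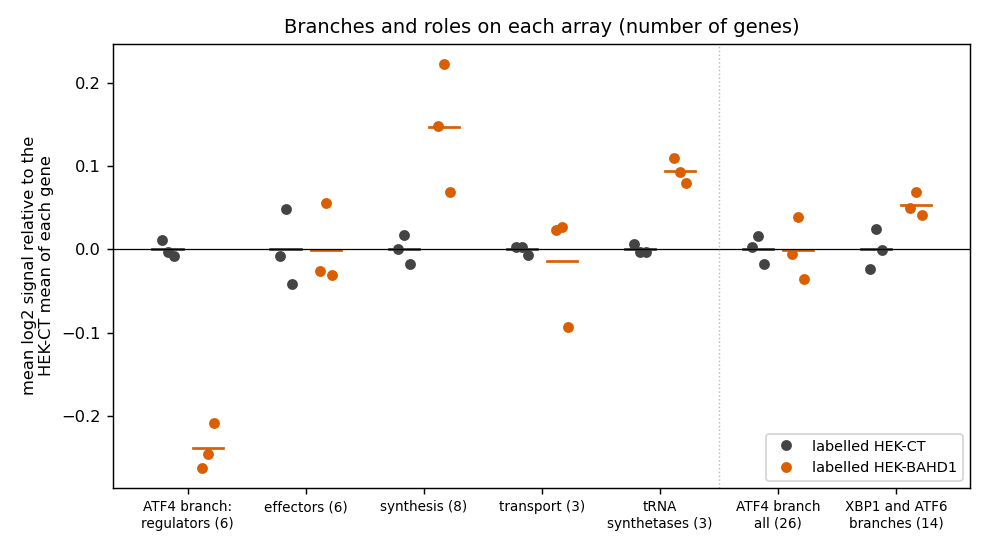
Mean log2 signal of each role and branch relative to the HEK-CT mean of each gene (vertical axis), on each array; points are arrays, bars are means of 3 arrays, and numbers of genes are in brackets. The 6 regulators lie between -0.26 and -0.21 on the arrays labelled HEK-BAHD1, while the ATF4 branch as a whole overlaps between the lines.

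Further genes of the pathway were read as lists, which were written with earlier results of these data known. Of 23 other measured ATF4 targets, 6 rose, 3 fell and 14 were not called, with a median log2 fold change of 0.20. Over all probe sets, 6.79% were called higher and 6.39% lower. The count of 6 higher became 5 when any array except HEK-BAHD1 replicate 3 was left out, and 7 when that array was. It was also 5 after each array was centred on its median and with the replicate number as a block. The median was 0.16 after centring and ranged from 0.1267 to 0.1983 with 1 array left out. The secreted hormone FGF21, the mTORC1 inhibitor DDIT4 and the proline-synthesis enzyme PYCR1 rose by 0.52, 0.52 and 0.49, and BCAT1, a transaminase of branched-chain amino acids, by 0.38 (adjusted p = 0.00442, 0.00593, 0.00198 and 0.0144 from limma). FGF21 was dim, with a mean log2 signal of 4.38 on the arrays labelled HEK-CT and 4.90 on the others. GADD45A, a stress-induced growth arrest gene, fell by 0.63 (adjusted p = 0.00132 from limma). KLHL24 and the death receptor TNFRSF10B were at -0.28 and -0.27, calls lost without any array except HEK-BAHD1 replicate 2 (adjusted p from 0.0578 to 0.109 and from 0.0511 to 0.0869 from limma). The count of 3 lower became 1 without each of those 5 arrays.
Of 12 other kinases, eIF2 and phosphatase genes of the integrated stress response, no call was made by limma or the LPE test. At an unadjusted limma p under 0.05 there were 0 higher and 3 lower, beside 3045 and 3118 of all 21062 probe sets. Centring each array on its median gave 2 lower calls among the 12, as did dropping the threshold on medians. The log2 fold changes of the 12 ranged from -0.22 to 0.14.

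Of 31 other measured ER targets of XBP1 and ATF6, 3 rose, 3 fell and 25 were not called, with a median log2 fold change of 0.02. This was 9.68% in each direction, beside 6.79% higher and 6.39% lower over all probe sets. The counts became 4 higher and 0 lower after quantile normalization again, 3 and 0 over all probe sets, and 2 and 0 with the replicate number as a block. KDELR3, a receptor that returns proteins to the ER, rose by 0.71 (adjusted p = 0.00151 from limma). WFS1, an ER membrane protein, and EDEM2, a degradation factor, were at 0.37 and 0.30. For WFS1 the call depended on replicate 3 of HEK-CT and replicate 3 of HEK-BAHD1 (adjusted p from 0.0559 to 0.0597 when either was left out, from limma). EDEM2 was not called without those arrays or HEK-CT replicate 2 (adjusted p from 0.0545 to 0.0692 from limma). HSPA13, DERL2 and ARFGAP3 were at -0.25, -0.25 and -0.24, and all 3 calls were lost without any single array (adjusted p from 0.0504 to 0.132 from limma).
Of 9 other ER stress regulators, the protease gene MBTPS1, whose product cuts ATF6, was at 0.25, and CREB3, an ER-bound factor, at -0.33 (adjusted p = 0.0186 and 0.00862 from limma). ATF5, a relative of ATF4, was at -0.26. Without replicate 2 or 3 of HEK-CT, or replicate 1 or 2 of HEK-BAHD1, MBTPS1 was not called (adjusted p from 0.0535 to 0.0700 from limma). ATF5 was not called when any array except HEK-BAHD1 replicate 2 was left out (adjusted p from 0.0633 to 0.107 from limma), nor with the LPE test (adjusted p = 0.157).

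Lists of other stress responses stood beside these. Of 12 measured heat shock genes, HSPB1 rose by 0.88 (adjusted p = 0.00469 from limma), and CHORDC1 and HSPH1 were called lower at -0.36 and -0.28. Leaving out replicate 2 or 3 of either line ended these lower calls, and for HSPH1 so did leaving out replicate 1 of HEK-CT (adjusted p from 0.0670 to 0.0929 from limma). Of 12 measured targets of NRF2, the oxidative stress factor that also acts on SLC7A11, only the ferritin light chain FTL was called, with a log2 fold change of -0.35 (adjusted p = 0.0104 from limma). The median of the NRF2 list was -0.12, with 9 of 12 genes below 0 and 5 lower at an unadjusted limma p under 0.05. Over all 21062 probe sets, 10440 were below 0 and 3118 were lower at that p.

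**Figure D4:**
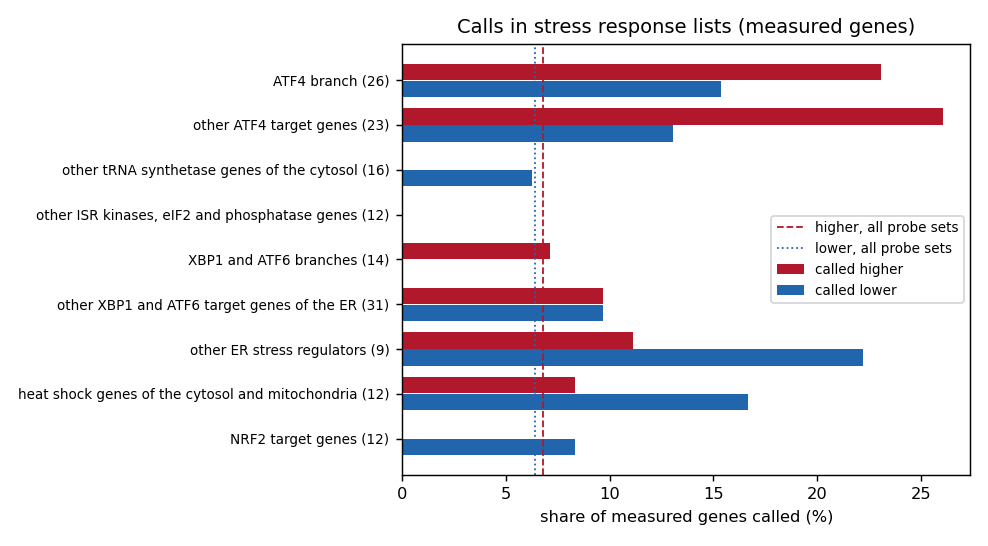
Share of measured genes called higher (red) or lower (blue) under the label HEK-BAHD1 (horizontal axis, percent) in each list, with the number of measured genes in brackets; the dashed and dotted lines are the shares over all probe sets, 6.79% and 6.39%. The ATF4 branch and the other ATF4 targets have calls in either direction, while the other kinases, eIF2 and phosphatase genes have none.

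The called members were on chromosomes 1, 11, 12, 14, 16, 19, 20 and 22, with ATF3 and PHGDH on chromosome 1 and DDIT3, SHMT2 and ALDH1L2 on chromosome 12. DDIT3 and SHMT2 lay within 10 tested genes of each other and moved in opposite directions. Over the 10 tested genes on each side of a called member, the median log2 fold change was 0.04 for DDIT3, 0.05 for PPP1R15A, 0.02 for ATF3, 0.01 for SLC3A2 and 0.04 for SLC7A5. Over all 11 called members these medians ran from -0.04 to 0.06. Calls among the 20 neighbours ran from 0 for TRIB3 to 4 higher and 0 lower for DDIT3 and 3 higher and 2 lower for SHMT2. Over all probe sets, 13.2% were called. DDIT3 and SHMT2 each count among the neighbours of the other, so their counts are not separate. Of the 8 members with a C/EBP-ATF element in the promoter window, none was called higher, ATF3 and SLC3A2 fell, and 6 were not called, beside 6.79% higher and 6.39% lower over all probe sets. None of the called higher members with a window, TRIB3, PHGDH, SLC7A5, WARS1 and CRELD2, held TGATGNAA there. DDIT3 and PPP1R15A, which fell, did not hold it either, and 4.46% of all genes with a window held it. Nothing is read from so few genes.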

How the data were processed

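Total RNA of 3 cultures per line was hybridised to Affymetrix HuGene 1.0 ST arrays. The deposited values are log2 signals that the authors computed by RMA (background correction, normalization between arrays, summary per probe set). RMA can pull small shared shifts towards 0. Symbols were updated through gene identifiers to RefSeq GRCh38.p14. Probe sets naming at least 1 gene (21062 of 28869) were tested with limma 3.58.1 in R 4.3.3 and the Benjamini-Hochberg adjustment over all of them. The brighter probe set stood for a gene with several. The LPE test of the methods was not installed and was rewritten (100 bins of intensity, spline with 10 degrees of freedom). Both tests were tested on simulated data. Members and lists were chosen with earlier results of these data known. Named were all members, BAHD1 and up to 4 called genes per direction of each other list. Replicate numbers did not pair the samples. Alternatives were other tests, variance models, scalings, filters and probe set rules, and leaving out each array. The number of arrays limits the precision. Promoter matches were exact.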

Additional observations from a re-analysis of the deposited data

How the results depend on the processing

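DDIT3, ATF3, PPP1R15A, SLC3A2 and SLC7A5 kept their direction and call under all 15 alternatives, and the count of 4 lower members became 5 only when each array was centred on its median. The other 6 called members kept their direction and were each lost under at least 1 alternative, and 3 members not called (CALR, PDIA4 and SDF2L1) were called under at least 1. The count of higher members, 7 in the report, was 4 over all probe sets, 2 after centring each array on its median and 2 with the replicate number as a block. It ranged from 1 to 3 with 1 array left out, lowest when replicate 3 of HEK-CT or replicate 2 of HEK-BAHD1 was left out. Centring shifted the median of all probe sets from 0.00 to -0.04 and the higher share of all calls from 51.5% to 36.6%. It also gave medians of -0.0017 for the ATF4 branch and 0.032 for the XBP1 and ATF6 branches. After quantile normalization again the latter was 0.118. The ATF4 branch minus the XBP1 and ATF6 branches was -0.087 after that normalization and -0.062 without the dimmest 30% of probe sets. With 1 array left out this difference ranged from -0.048 to 0.0175, the ATF4 median from 0.021 to 0.093 and the XBP1 and ATF6 median from 0.053 to 0.076. Same-numbered arrays of the lines had correlations of their deviations of -0.077, 0.074 and -0.038, so the numbers are not taken as pairs. Over all probe sets, calls fell with the block to 962 higher and 829 lower. With 1 array left out they ranged from 806 to 938 higher and from 581 to 937 lower, from 1430 and 1345 with all arrays. BAHD1 was lower on the arrays labelled HEK-BAHD1 under every alternative. Low signal limits ALDH1L2, which lay below the median of every array, and NUPR1, which was above it on 2 of 6 arrays. Differences of medians up to 0.2 were not called by the rule used. Without that threshold, 1497 probe sets were higher and 1425 lower in the main limma fit, and the members still gave 7 and 4. Under other tests the threshold did matter. With trended and robust variance, CALR, DNAJC3, PDIA4, PDIA6 and ASNS had a limma adjusted p under 0.05 and stayed uncalled through it, as CALR, PDIA4 and PDIA6 did with the LPE test.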
